A study of Mus musculus with 6 samples.

Results

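Sterol export genes, the liver X receptors (LXRs) that control them and their neighbours in sterol handling were examined in toxin-exposed mouse liver. The set was defined by name and held 9 of the 41388 genes in the count table: Abcg5, Abcg8, Abca1, Abcg1, Nr1h2, Nr1h3, Soat2, Scarb1 and Lpcat3. Each name matched 1 Ensembl identifier, and all 9 passed the filter on low counts. The AL/NP group was 3 livers of BALB/c mice that had CCl4, a liver toxin, for 5 weeks and, in the last 2 weeks, 2 injections per week of nanogels loaded with alendronate at 4 mg/kg. The control group was 3 livers of BALB/c mice with the same CCl4 exposure, labelled untreated and fibrotic control. The treatment protocol attached to the control samples is worded like that of the AL/NP samples, so their status rests on the titles and the treatment label. Both groups had therefore been exposed to CCl4, and the titles of the AL/NP samples do not say whether those livers were fibrotic. The samples used here include no healthy liver and no empty nanogel. Age and sex are not in the labels, which also do not say whether controls received injections or whether each replicate was a separate animal, so the p-values measure the spread between these libraries. The particles, the drug and the injections cannot be told apart in this design.

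LXRs are nuclear receptors that bind oxysterols and pair with retinoid X receptors on DNA. When cell cholesterol is high they raise genes that remove it, whereas the SREBP2 pathway raises synthesis and uptake when cholesterol is low. In liver, the transporter subunits ABCG5 and ABCG8 join to move sterols into bile, ABCA1 loads cholesterol and phospholipid onto apolipoprotein A-I to form high-density lipoprotein (HDL), and SR-BI takes up cholesteryl ester from HDL. Macrophages use ABCA1 and ABCG1 to unload cholesterol.

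The libraries held 30554483 to 33283147 counts with AL/NP and 32694163 to 39838428 in controls, and 3 counts corresponded to 0.0753 to 0.0982 CPM, the library-scaled count. Hepatocyte markers were abundant in every library, with 9 genes summing to between 50012 and 58174 CPM with AL/NP and between 56806 and 69927 CPM in controls. Control replicate 3 stood apart, with a scaling factor of 0.809 against 0.937 to 1.13 in the other 5 libraries and 26.7% of its counts from mitochondrially encoded genes, against 11.96% to 19.8%. AL/NP replicate 1 had the lowest levels of Abcg5, Abcg8, Abca1 and Lpcat3. Values without these 2 libraries are given for some of the results that they move.

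The canalicular sterol exporter pair gave the largest differences of the 9 genes. Abcg5 (chromosome 17, 84658234 to 84683011, minus strand, GRCm38) was 3.53-fold lower with AL/NP and Abcg8 (chromosome 17, 84676302 to 84700333, plus strand) was 3.14-fold lower. No other gene of the set differed by more than 1.74-fold in either direction. Scarb1, Abcg1 and Nr1h3 were higher with AL/NP and Soat2, Lpcat3, Abca1 and Nr1h2 lower, as fitted values. The edgeR quasi-likelihood test called none of the 9 at an adjusted p of 0.05, where it called 13 of 15939 genes, or 0.0816%. At an unadjusted p under 0.05 there were 5 of the 9, namely Abcg5, Abcg8, Abcg1, Soat2 and Scarb1, where the background was 19.6% of all genes. DESeq2 called 3 of the 9, Abcg5, Abcg8 and Scarb1, where it called 5.07% of the genes it adjusted.

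**Figure D1:**
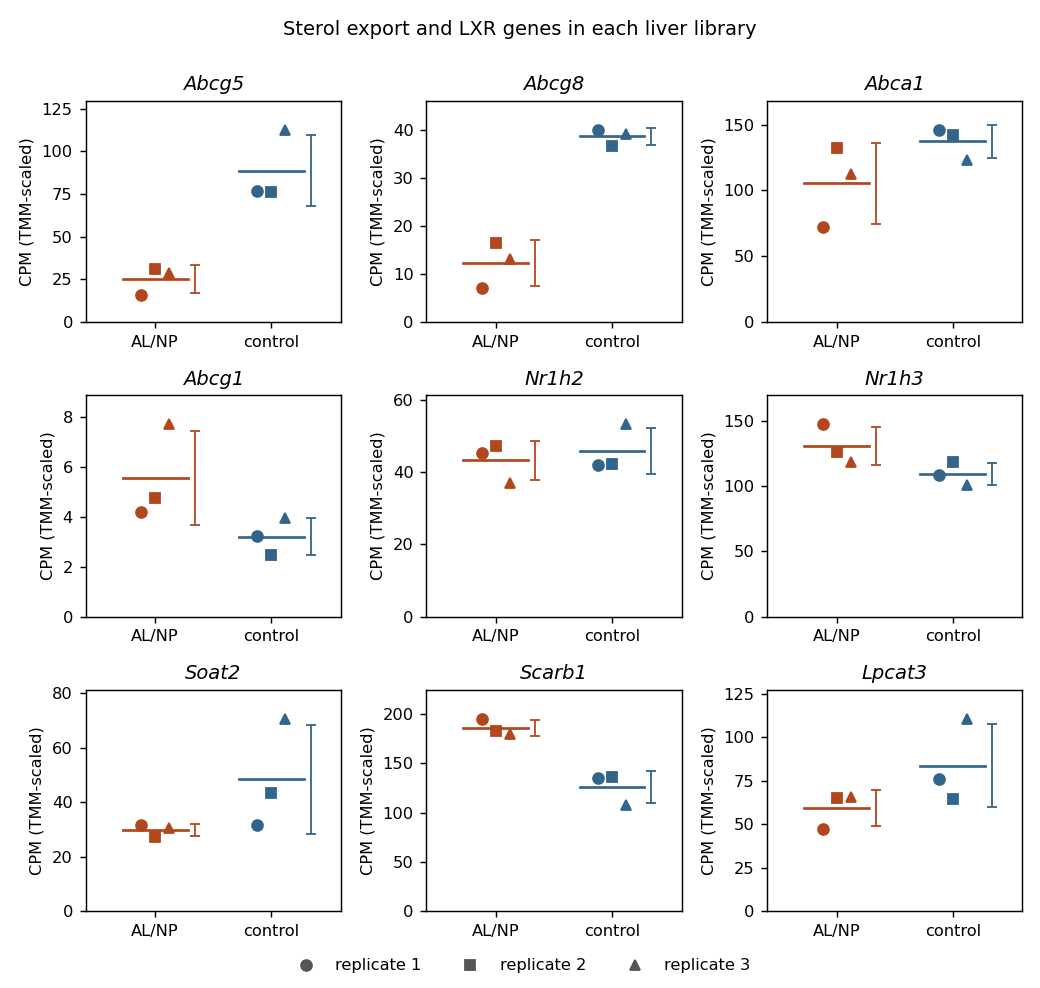
TMM-scaled CPM of each gene in every library; points are libraries (shape gives the replicate), horizontal lines are group means and the bar beside them is the SD of 3 libraries. Abcg5 and Abcg8 sit far lower in all 3 AL/NP libraries, whereas Abca1, Nr1h2 and Lpcat3 overlap between groups.

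Abcg5, which encodes one subunit of the exporter, measured 15.5, 31.2 and 28.5 CPM in AL/NP replicates 1 to 3, against 77.0, 76.3 and 112.7 CPM in control replicates 1 to 3. The highest AL/NP library was below the lowest control by more than the range within AL/NP. Its log2 fold change was -1.82 (SE 0.280, 95% interval -2.46 to -1.19, adjusted p = 0.0749, edgeR), and it ranked 27 of 15939 genes by p. DESeq2 gave an adjusted p of 2.10e-07. The direction was the same whichever library was left out, at -1.57 when AL/NP replicate 1 was dropped and -1.61 when control replicate 3 was.

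Abcg8, which encodes the other subunit, measured 7.16, 16.5 and 13.1 CPM in AL/NP replicates 1 to 3, against 40.0, 36.7 and 39.1 CPM in control replicates 1 to 3. Controls were tight, with a mean of 38.6 ± 1.74 CPM (SD, n = 3), and all 3 AL/NP libraries lay below them, at 12.3 ± 4.73 CPM (SD, n = 3). The log2 fold change was -1.65 (SE 0.268, 95% interval -2.26 to -1.04, adjusted p = 0.0783, edgeR), rank 36 by p, and the DESeq2 adjusted p was 3.61e-06. Leaving out AL/NP replicate 1 gave -1.38, and leaving out control replicate 3 gave -1.64. Only 66 of the 15939 genes had a fold change as low as that of Abcg5 or lower, and 90 as low as that of Abcg8 or lower.

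**Figure D2:**
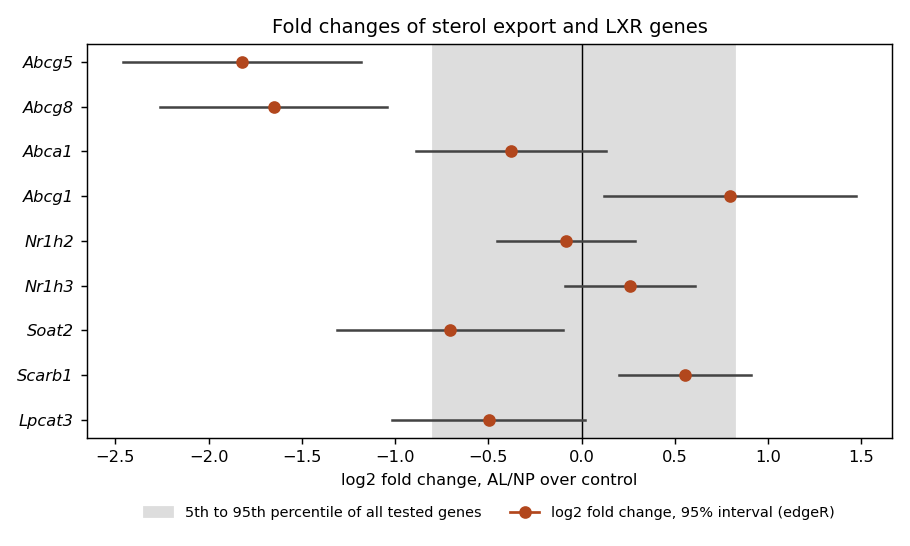
Log2 fold change of AL/NP over control for each gene (points) with its 95% interval from the edgeR fit (lines); the grey band runs from the 5th to the 95th percentile of all tested genes, -0.796 to 0.821. The intervals of Abcg5 and Abcg8 lie wholly below the band, and those of Nr1h2 and Nr1h3 lie wholly inside it.

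The 2 exporter genes lie on opposite strands. A RefSeq start site of Abcg8, at 84676302, lies inside Abcg5. Another, at 84683121, lies head to head with the Abcg5 start, 110 bases away. The bases between these 2 starts form the near promoter of Abcg5 and of this Abcg8 start. That interval is shown because the pair moved together. Capitals mark TTATCT, which is AGATAA, the GATA factor motif, read on the other strand.
Abcg5 and Abcg8 interval, chr17:84683012-84683120, plus strand, GRCm38.p6: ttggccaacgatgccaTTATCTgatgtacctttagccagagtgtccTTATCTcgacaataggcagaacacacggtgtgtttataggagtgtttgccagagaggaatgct
The matches lay 17 to 22 and 47 to 52 bases upstream of the Abcg5 start. A further match lay 12 to 17 bases after that start, outside the interval shown. AGATAA on either strand occurred in 11.2% of all 32851 RefSeq promoter windows, which run from 250 bases before a start to 50 after it. This motif was picked after the sequence was read. The LXR element with its ideal letters, AGGTCA repeated after 4 bases, was in no window of the 6 genes of the set that had one (0.0152% of all windows), and neither was the sterol regulatory element TCACNCCAC (1.24%) or the Nr5a2 motif TCAAGGTCA (0.423%), all read on both strands. A further pattern searched, GGNCA repeated after 4 bases, does not have the spacing of an LXR element, and was also in no such window (1.77% of all windows). These matches describe letters and not binding.

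Because the pair works as a heterodimer, the ratio of the 2 genes was compared within libraries, which needs no scaling. Abcg5 had 2.17, 1.89 and 2.17 counts per Abcg8 count in AL/NP replicates 1 to 3, against 1.92, 2.08 and 2.88 in control replicates 1 to 3. The groups overlapped, and the log2 ratio was 1.05 ± 0.114 with AL/NP and 1.18 ± 0.309 in controls (SD, n = 3 each; difference -0.125, exact two-sided permutation p = 0.80, adjusted over 2 ratios 0.80, smallest possible p = 0.10). The difference turned to 0.0505 without control replicate 3. Across 13712 genes with at least 1 CPM, the log2 deviations of Abcg8 over the 6 libraries were the third closest to those of Abcg5, with a root mean square difference of 0.2002, after Pole (0.153) and Atad5 (0.169). Abcg5 was in turn the third closest to Abcg8, after Atad5 (0.1497) and Adamts7 (0.182). These deviations include the difference between the groups, so the ranks follow in part from the fold changes given above. Pole encodes a DNA polymerase subunit, Atad5 a DNA clamp unloader and Adamts7 a metalloproteinase. Exons annotated to the pair share 82 bases on opposite strands, and the strand setting of the counting is not given in the sources used here, so a small share of reads cannot be assigned to one of them.

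**Figure D3:**
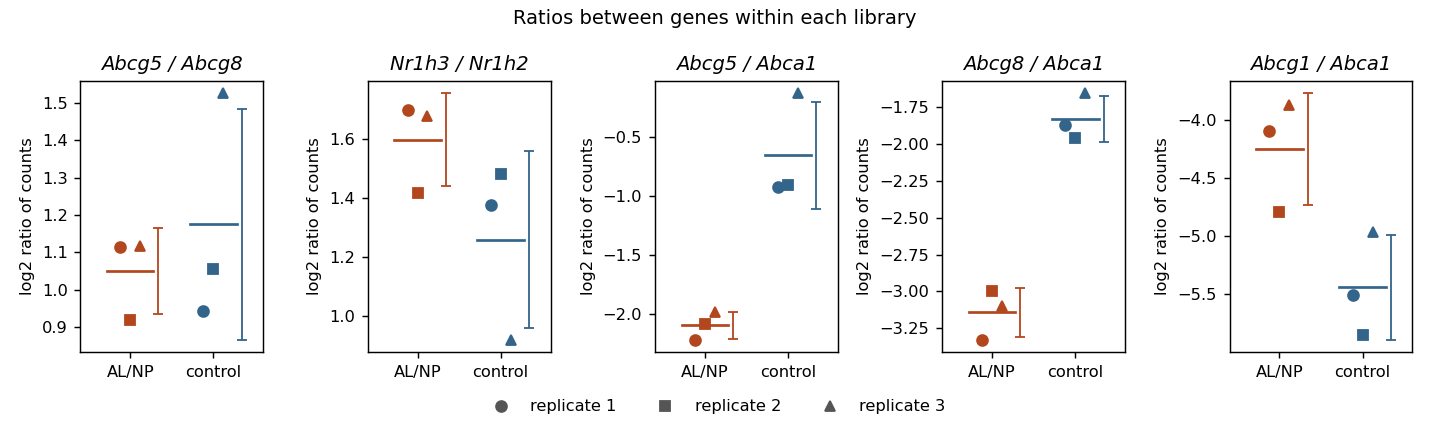
Log2 ratio of the counts of 2 genes within each library; points are libraries (shape gives the replicate), horizontal lines are group means and bars are the SD of 3 libraries. The ratios of Abcg5 to Abcg8 and of Nr1h3 to Nr1h2 overlap between groups, and the 3 ratios to Abca1 do not.

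Abca1, the efflux transporter that starts HDL formation (chromosome 4, 53030787 to 53159895, minus strand), is a classic LXR target like the exporter pair, but its levels overlapped. It measured 71.9, 132 and 112 CPM in AL/NP replicates 1 to 3, against 146, 142 and 123 CPM in control replicates 1 to 3. The single low value was AL/NP replicate 1. The log2 fold change was -0.38 (SE 0.224, 95% interval -0.889 to 0.129, adjusted p = 0.359, edgeR), and -0.17 without AL/NP replicate 1; the interval includes 0. The 100 bases upstream of its start are shown because they carry a looser LXR element, with GGTNA repeated after 5 bases in capitals on the other strand.
Abca1 upstream, chr4:53159896-53159995, minus strand, GRCm38.p6: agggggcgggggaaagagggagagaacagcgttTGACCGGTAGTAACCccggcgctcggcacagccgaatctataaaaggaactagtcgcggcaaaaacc
The match lay 53 to 67 bases upstream of the start. The same pattern, also chosen after the sequences were read, was in 0.718% of all windows and in no window of Abcg5, Abcg8, Nr1h2, Nr1h3 or Lpcat3.

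Set against Abca1 within each library, the exporter pair was lower with AL/NP in every library. Abcg5 had 0.216, 0.236 and 0.253 counts per Abca1 count in AL/NP replicates 1 to 3, against 0.527, 0.535 and 0.915 in control replicates 1 to 3. The mean log2 ratio differed by -1.44 for Abcg5 and by -1.32 for Abcg8. Both gave an exact two-sided permutation p of 0.10, the smallest that 3 against 3 libraries can give. These ratios, and that of Abcg1 below, were chosen after the levels were seen, and their p adjusted over 3 ratios was 0.10 for each.

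Abcg1 (chromosome 17, 31057675 to 31117988, plus strand) passes cholesterol to HDL particles that are already formed and is best known from macrophages. It was low in whole liver, with 4.21, 4.76 and 7.72 CPM in AL/NP replicates 1 to 3, against 3.22, 2.46 and 3.94 CPM in control replicates 1 to 3. The groups did not overlap, but AL/NP replicate 1 and control replicate 3 were close. The log2 fold change was 0.80 (SE 0.297, 95% interval 0.122 to 1.47, adjusted p = 0.204, edgeR) and 0.49 without AL/NP replicate 3. Its log2 ratio to Abca1 was higher by 1.19 with AL/NP (exact two-sided permutation p = 0.10, the smallest possible). That p was 0.20 when AL/NP replicate 1 or 3 or control replicate 1 or 2 was left out. The ratios of the groups stayed apart in each case. With fewer libraries this p moves in coarse steps, so its rise does not measure a weaker difference. The 12 macrophage markers were all higher, and 9 reached an unadjusted p of 0.05, against 19.6% of all genes. EdgeR called 0 of the 12 and DESeq2 called 4, against 5.07% of all genes it adjusted. They summed to 534 to 781 CPM with AL/NP and 264 to 375 CPM in controls. None of the 12 was at 0. The 8 Kupffer cell markers summed to 79.8 to 141 CPM with AL/NP and 111 to 134 CPM in controls, and 5 of 8 were higher. Their part in the level of Abcg1 was not tested, and in whole tissue more cells of a type cannot be told apart from more RNA per cell.

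**Figure D4:**
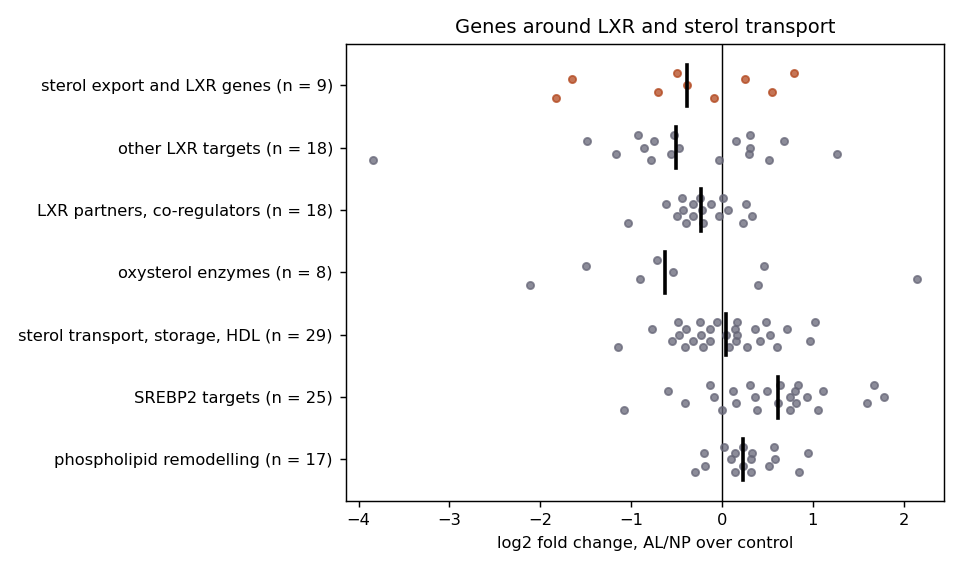
Log2 fold change of AL/NP over control for every tested gene of the 9-gene set and the 6 lists around it; points are genes, spread vertically for visibility, and the black lines are list medians. Among the rows drawn, SREBP2 targets have the highest median, 0.617, and oxysterol enzymes the lowest, -0.626.

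The receptors themselves differed little. Nr1h3, which encodes LXR alpha, the main form in liver (chromosome 2, 91184061 to 91202834, minus strand), measured 147, 126 and 119 CPM in AL/NP replicates 1 to 3, against 109, 118 and 101 CPM in control replicates 1 to 3. The lowest AL/NP library, at 118.75 CPM, was barely above the highest control, at 118.23 CPM. Nr1h3 had a log2 fold change of 0.26 (SE 0.154, 95% interval -0.0898 to 0.608, adjusted p = 0.361, edgeR), and 0.16 when AL/NP replicate 1 was dropped. Nr1h2, which encodes the widely expressed LXR beta (chromosome 7, 44549616 to 44553951, minus strand), measured 45.4, 47.3 and 37.1 CPM in AL/NP replicates 1 to 3, against 42.0, 42.3 and 53.2 CPM in control replicates 1 to 3. Its groups overlapped, with a log2 fold change of -0.08 (SE 0.163, 95% interval -0.454 to 0.288, adjusted p = 0.802, edgeR), and its sign turned under some settings.

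The balance of the 2 receptors was compared within libraries. Nr1h3 had 3.24, 2.67 and 3.20 counts per Nr1h2 count in AL/NP replicates 1 to 3, against 2.59, 2.79 and 1.89 in control replicates 1 to 3. The groups overlapped, and the difference in log2 ratio was 0.338 (exact two-sided permutation p = 0.20, adjusted over 2 ratios 0.40), and 0.169 when control replicate 3 was dropped. Per exon length, in TMM-scaled CPM per kilobase (RPKM), Nr1h3 stood at 52.0 ± 5.90 RPKM with AL/NP and 43.4 ± 3.48 RPKM in controls, and Nr1h2 at 12.9 ± 1.62 RPKM with AL/NP and 13.7 ± 1.91 RPKM in controls (SD, n = 3 each).

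Scarb1 (chromosome 5, 125277087 to 125341094, minus strand) encodes SR-BI, the HDL receptor of hepatocytes. It measured 195, 183 and 179 CPM in AL/NP replicates 1 to 3, against 135, 136 and 108 CPM in control replicates 1 to 3. The groups were well apart, and the AL/NP libraries were tight. The log2 fold change was 0.56 (SE 0.156, 95% interval 0.203 to 0.9098, adjusted p = 0.144, edgeR), which DESeq2 called, with an adjusted p of 0.0381. It was 0.45 without control replicate 3. Pdzk1, which encodes the adaptor that holds SR-BI at the membrane in liver and was named here after its values were seen, was also higher as a fitted value, with a log2 fold change of 0.72 (SE 0.244, adjusted p = 0.186, edgeR) and no overlap.

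Soat2 (chromosome 15, 102150526 to 102163469, plus strand) encodes the hepatocyte enzyme that esterifies cholesterol for storage and lipoproteins. It measured 31.594, 27.2 and 30.4 CPM in AL/NP replicates 1 to 3, against 31.618, 43.2 and 70.5 CPM in control replicates 1 to 3. Control replicate 1 was level with AL/NP replicate 1, so the lack of overlap rested on a hair. Soat2 had a log2 fold change of -0.70 (SE 0.266, 95% interval -1.31 to -0.10, adjusted p = 0.208, edgeR) and -0.33 without control replicate 3. Lpcat3, which encodes the LXR-responsive acyltransferase that puts polyunsaturated chains into phospholipids (chromosome 6, 124663027 to 124704418, plus strand), measured 47.4, 64.9 and 65.5 CPM in AL/NP replicates 1 to 3, against 76.2, 64.3 and 110.5 CPM in control replicates 1 to 3. Its groups overlapped. Lpcat3 had a log2 fold change of -0.50 (SE 0.228, 95% interval -1.01 to 0.0199, adjusted p = 0.267, edgeR) and -0.25 without control replicate 3. The exons of Lpcat3 share 334 bases with Emg1 on the opposite strand, which had 12544 counts over the 6 libraries where Lpcat3 had 14518, so reads there are uncertain.

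Over the 9 genes the median log2 fold change was -0.38, against -2.49e-04 over all tested genes (-0.17 for the 9 when AL/NP replicate 1 was dropped), and 6 of 9 were lower, against 50.0% of all genes. The groups did not overlap in 6 of the 9, against 29.5% of all genes. In 3 of these, Abcg5, Abcg8 and Soat2, all AL/NP libraries were lower, against 15.0% of all genes, and in 3, Abcg1, Nr1h3 and Scarb1, all were higher, against 14.5%. Without control replicate 3 there were 7 of 9 against 42.2% of all genes, and without AL/NP replicate 1 there were 6 of 9 against 38.4%. The genes were chosen with earlier results of these data known, so these counts describe the set.

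In the order of levels per exon length, Abcg5 was the seventh of the 9 genes with AL/NP and the second in controls. With AL/NP, Nr1h3 led, followed by Scarb1 at 21.8 ± 0.951 RPKM, Lpcat3 at 18.1 ± 3.13, Soat2 at 13.4 ± 1.02, Nr1h2, Abca1 at 10.2 ± 2.96, Abcg5 at 9.24 ± 3.09, Abcg8 at 3.27 ± 1.263 and Abcg1 at 0.762 ± 0.259 RPKM (SD, n = 3). The ranges of Soat2 and Nr1h2, of Nr1h2 and Abca1, and of Abca1 and Abcg5 overlapped there. In controls, Nr1h3 led, followed by Abcg5 at 32.7 ± 7.68 RPKM, Lpcat3 at 25.6 ± 7.34, Soat2 at 21.9 ± 9.03, Scarb1 at 14.9 ± 1.90, Nr1h2, Abca1 at 13.2 ± 1.19, Abcg8 at 10.3 ± 0.463 and Abcg1 at 0.439 ± 0.102 RPKM (SD, n = 3). Among neighbours in the control order, only Abca1 and Abcg8, and Abcg8 and Abcg1, had ranges that did not overlap.

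Other LXR targets were mixed. Of 18 tested, edgeR called 0, although 3 higher and 5 lower reached an unadjusted p of 0.05, against 19.6% of all genes. DESeq2 called 1 higher and 2 lower, against 5.07% of all genes it adjusted. The median log2 fold change was -0.50. That median was -0.00196 without control replicate 3 and -0.31 without AL/NP replicate 1. Cd5l, an LXR target of macrophages, measured 39.1, 38.9 and 56.8 CPM in AL/NP replicates 1 to 3, against 17.8, 17.6 and 20.7 CPM in control replicates 1 to 3. All AL/NP libraries were above all controls, with a log2 fold change of 1.264 (SE 0.185, adjusted p = 0.064, edgeR). Mlxipl, which encodes the carbohydrate sensor ChREBP, was at -1.16 (SE 0.312, adjusted p = 0.144, edgeR), with no overlap between groups, and at -0.69 when control replicate 3 was dropped. Cyp7a1, the first enzyme of bile acid synthesis and an LXR target in rodents, named here after its values were seen, measured 0.0348, 0.0826 and 0.493 CPM in AL/NP replicates 1 to 3, against 0.144, 0.4695 and 8.54 CPM in control replicates 1 to 3. It was at or under 3 counts in AL/NP replicates 1 and 2, the groups overlapped, and control replicate 3 was far above the other 5 libraries.

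Among 18 partners and co-regulators of LXR and neighbouring nuclear receptors, edgeR called 0. At an unadjusted p of 0.05 there were 5 lower and 0 higher, against 19.6% of all genes. DESeq2 called 1, which was lower, against 5.07% of all genes it adjusted. The median was -0.23 (-0.08 with library totals as the only scaling). The smallest p-values were those of Ncoa2, a coactivator, at -0.62 (SE 0.173), Nr0b2, which encodes the repressor SHP, at -1.03 (SE 0.322), and Hdac3, the deacetylase of the corepressor complex, at -0.39 (SE 0.133), with edgeR adjusted p of 0.144, 0.166 and 0.186. Nr0b2 measured 27.2, 32.5 and 28.1 CPM in AL/NP replicates 1 to 3, against 96.7, 41.9 and 40.4 CPM in control replicates 1 to 3. Control replicate 1 carried much of that difference, and the log2 fold change of Nr0b2 was -0.49 without it.

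Oxysterols are LXR ligands, and 8 of 10 genes for their enzymes were tested. EdgeR called 0, while 2 higher and 3 lower reached an unadjusted p of 0.05, against 19.6% of all genes. DESeq2 called 1 higher and 1 lower, against 5.07% of all genes it adjusted. The median was -0.63 (-0.25 without control replicate 3). Ch25h, which makes 25-hydroxycholesterol and is induced in activated macrophages, measured 2.64, 2.56 and 3.22 CPM in AL/NP replicates 1 to 3, against 1.12, 0.304 and 0.466 CPM in control replicates 1 to 3. All AL/NP libraries were higher, with a log2 fold change of 2.15 (SE 0.449, adjusted p = 0.103, edgeR). The macrophage markers given beside Abcg1 were higher too, and their part in the levels of Cd5l and Ch25h was not tested. Akr1d1, a steroid reductase of bile acid synthesis, was at -2.11 (SE 0.387, adjusted p = 0.0928, edgeR), and at -1.78 without AL/NP replicate 1. Cyp46a1, which makes 24-hydroxycholesterol, was at -0.90 (SE 0.269, adjusted p = 0.153, edgeR), and at -0.70 without control replicate 3. Neither gene overlapped between the groups.

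In the list of sterol transport, storage and HDL, 29 of 31 were tested and edgeR called 0. At an unadjusted p of 0.05 there were 5 higher and 5 lower, against 19.6% of all genes. DESeq2 called 2, both higher, against 5.07% of all genes it adjusted. The median was 0.05, which turned to -0.04 when AL/NP replicate 3 was dropped and -0.06 when control replicate 1 was. Npc2, which hands cholesterol out of lysosomes, was at 1.02 (SE 0.163, adjusted p = 0.0783, edgeR). Nceh1, a cholesteryl ester hydrolase, was at 0.97 (SE 0.249, adjusted p = 0.134, edgeR), and at 0.70 without control replicate 3. Abcg2, a relative of the exporter pair that carries drugs, was at -0.47 (SE 0.157, adjusted p = 0.183, edgeR). Abcb11, the bile salt export pump, named here after its values were seen, measured 51.3, 58.3 and 65.0 CPM in AL/NP replicates 1 to 3, against 72.6, 64.4 and 250.2 CPM in control replicates 1 to 3. Control replicate 3 was far above the other 5 libraries, and the groups overlapped.

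SREBP2 targets leaned higher with AL/NP, and they held the only genes called by edgeR in the 6 lists. Of 25 tested, edgeR called 3, all higher, against 0.0816% of all genes. They were Msmo1, Cyp51 and Idi1, enzymes of sterol and isoprenoid synthesis, at 1.60, 1.68 and 1.79 (adjusted p = 0.0493 each, edgeR). At an unadjusted p under 0.05 there were 14 higher and 0 lower, against 19.6% of all genes. DESeq2 called 10, all higher, against 5.07% of all genes it adjusted. Leaving out any 1 of the 6 libraries ended all 3 edgeR calls. The median was 0.62, and 19 of the 25 were higher and 6 lower. Of 17 tested genes of phospholipid remodelling beside Lpcat3, edgeR called 0, and the median of this list was 0.23. At an unadjusted p of 0.05 there were 1 higher and 0 lower, against 19.6% of all genes. DESeq2 called 1, which was higher, against 5.07% of all genes it adjusted. Agpat4, Lpcat2 and Elovl5, all acyl-chain enzymes, had the smallest p-values of the list, at 0.94 (SE 0.257), 0.84 (SE 0.413) and 0.33 (SE 0.172). Their edgeR adjusted p was 0.144, 0.288 and 0.305. Lpcat2 was at 0.44 and Elovl5 at 0.20 when AL/NP replicate 3 was dropped.

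**Figure D5:**
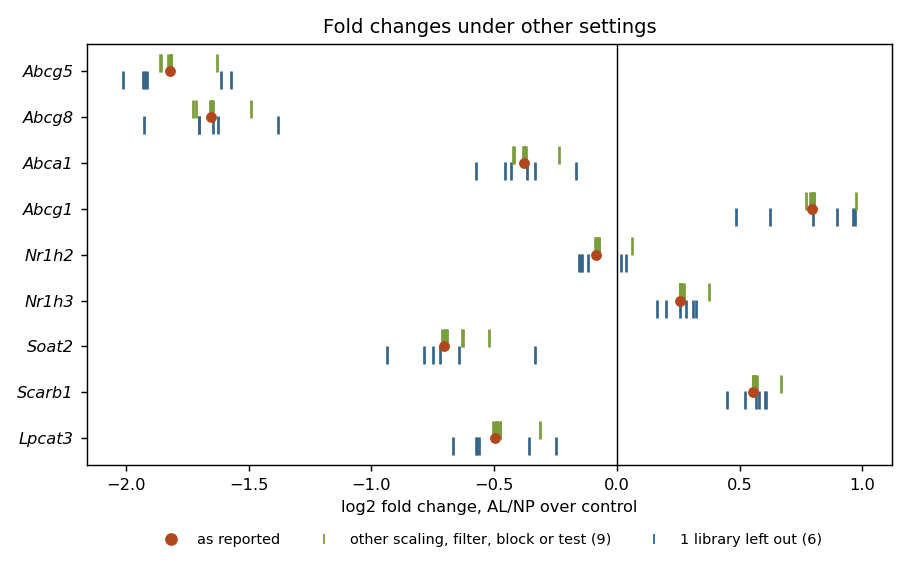
Log2 fold change of AL/NP over control for each gene as reported (points), under 9 other scalings, filters, blocks or tests and with each of the 6 libraries left out (ticks). Abcg5 stays between -2.01 and -1.57 and Abcg8 between -1.93 and -1.38, and only Nr1h2 crosses 0.

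Markers of other cell types moved with the groups as follows, and their part in the results above was not tested. Neutrophil markers were higher in 6 of 6 tested, with 4 at an unadjusted p under 0.05, against 19.6% of all genes. EdgeR called 0 of them and DESeq2 called 3, against 5.07% of all genes it adjusted. They summed to 34.8 to 76.7 CPM with AL/NP and 19.1 to 34.2 CPM in controls. Cholangiocyte markers were higher in 6 of 6 tested, with 0 at an unadjusted p under 0.05, summing to 434 to 851 CPM with AL/NP and 392 to 575 CPM in controls. Stellate cell markers were higher in 3 of 10, at 327 to 704 CPM with AL/NP and 344 to 884 CPM in controls. Endothelial markers were higher in 5 of 9, lymphocyte markers in 4 of 8 and enterocyte markers in 1 of 2 tested. Hepatocytes are the cells that carry most ABCG5 and ABCG8 in liver. Their markers were higher in 4 of 9 and lower in 5, with log2 fold changes from -1.62 to 0.828 and a median of -0.23. No listed marker in the table was at 0 in all 6 libraries.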

How the data were processed

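Messenger RNA of CCl4-exposed mouse liver was sequenced in 6 libraries. The deposited table held raw read counts per Ensembl gene for each library; the tools named by the authors, per the submitters' processing notes, are GRCm38 as genome build, STAR 2.6.1a, featureCounts and DESeq2 1.26.0. Strand setting, annotation release and treatment of reads with several matches are not given in the sources used here. The main test was glmQLFTest in edgeR 4.0.16 (quasi-likelihood; R 4.3.3) with a robust fit, TMM scaling and filterByExpr (minimum count 10), with Benjamini-Hochberg adjustment over 15939 genes at 0.05. CPM is TMM-scaled, RPKM divides it by the union exon length of GENCODE M21, and each SE was taken from the fold change and its F statistic. Floors cover counting error only. Alternatives were DESeq2 1.42.0, limma-voom 3.58.1, other scalings and filters, a replicate block and each library left out; some ratios and motifs were added after the values were seen. The fit was also run on simulated counts with known changes. The outcome is not given here, so it offers no measure of how often real differences are missed. Promoter sequences are from RefSeq (GRCm38.p6), with windows for 6 of the 9 genes. The members and lists were chosen with earlier results of these data known; named genes were all 9, the 3 with the smallest p of each of 6 lists and those closest in pattern, of which 1 is not reported here. Replicate numbers are not stated to pair the libraries, and the main fit did not pair them.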

Additional observations from a re-analysis of the deposited data

How the results depend on the processing

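Abcg5, Abcg8, Abca1, Abcg1, Nr1h3, Soat2, Scarb1 and Lpcat3 kept their direction under all 15 alternatives run, and so did the context genes named by rule, Lpcat2 with 14. Nr1h2 turned to 0.0631 with library totals as the only scaling and ranged from -0.153 to 0.0354 with 1 library left out, positive when AL/NP replicate 3 or control replicate 3 was. Library totals moved the median of all genes to 0.133. The count of called genes, 13, was 0 with library totals, 0 with at least 50 counts in 3 libraries, 0 without robust estimation, 747 with no filter beyond 1 count, 844 with DESeq2, 23 with the replicate block, and 0 to 4 with 1 library left out. Calls among the 9 genes numbered 2 with no filter, 3 with DESeq2, 1 with the block (Abcg5, adjusted p = 0.0436) and 0 under the others; the cause was not tested. The adjusted p of Abcg5 ranged from 2.10e-07 to 0.207 and that of Abcg8 from 3.61e-06 to 0.194. The median of the 9 ranged from -0.568 to -0.167 with 1 library left out. The difference between AL/NP and control in the log2 ratio of Abcg5 to Abcg8 ranged from -0.241 to 0.0505 with 1 library left out. Same-numbered libraries did not deviate together (correlations of -0.0548, 0.0427 and 0.0752), and not every library correlated best with its own number. With 3 libraries per group these correlations cannot exclude pairing or a shared batch, and the labels do not state any pairing. Msmo1, Cyp51 and Idi1 sat at the threshold and lost their calls whenever a library was left out.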
